A study of Arabidopsis thaliana with 12 samples.

Results

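AT3G02480 and AT3G17520 are nuclear genes of Arabidopsis thaliana of the late embryogenesis abundant (LEA) type. They are read by probe sets 258498_at and 258347_at, 2 of 22746 tested, and were selected on their signals across the 6 combinations of genotype and salt. Their own values are therefore given as a description, with no test. Each probe set is listed with 1 gene, and the RefSeq gene table gives both genes only their locus names.

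LEA proteins are hydrophilic and mostly disordered proteins that build up late in seed maturation and in vegetative tissue that loses water. Abscisic acid, the hormone of water deficit, induces many of their genes. They are known for shielding enzymes and membranes during drying, freezing and salt stress. In the list of the LEA family used here, both genes belong to the group called LEA_4, whose proteins carry repeated short motifs and include the chloroplast protectants COR15A and COR15B.

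Leaves of 3 genotypes, labelled Ws, Col and Col(gl), were compared without salt (0 mM NaCl) and at 100 mM NaCl, with 2 biological replicates per combination and 1 Affymetrix array per replicate, 12 arrays in all. Ws is the usual abbreviation of the accession Wassilewskija and Col that of Columbia, and the labels do not say what sets Col(gl) apart from Col. All plants grew in soil under 10 h of light, salted plants were watered with NaCl raised by 50 mM every 2 days from day 14 after sowing, and leaves of every group were taken on day 20, 6 days after salt began. The controls received the same nutrient solution with no NaCl. In whole leaves, fewer cells that express a gene and less RNA per cell cannot be told apart.

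Over the 12 arrays the median log2 signal ran from 6.15 to 6.38, and the lower quartile from 4.19 to 4.42. A signal at or under its array's lower quartile is not shown here to be above background. RCA (AT2G39730), the activase of the carbon-fixing enzyme Rubisco and the 1 leaf marker with a value, read 13.6 to 14.1 on all arrays, while the root hair expansins EXPA7 and EXPA18 stayed between 4.16 and 4.87. No seed or flower marker of the lists had a value. The median signal of 69 plastid-encoded probe sets was 8.73 on replicate 1 of salted Ws and 9.48 on replicate 1 of salted Col, against 10.3 to 11.8 on the other 10 arrays. On the same arrays the 3' actin control probe set exceeded the 5' one by 1.98 and 1.65 log2 units, against 0.70 to 1.14 elsewhere, and the main differences are also given without both arrays.

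AT3G02480 was near or under the lower quartile without salt in every genotype and far above it with salt in every genotype. In Ws its log2 signals were 3.90 and 4.07 without salt and 10.97 and 11.30 with salt. In Col they were 4.21 and 3.59 without salt and 10.12 and 10.55 with salt. In Col(gl) they were 4.39 and 4.31 without salt and 7.36 and 7.87 with salt. All 6 salted arrays lay above all 6 unsalted arrays, and the highest unsalted signal, 4.39, was the only one above its array's lower quartile.

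**Figure D1:**
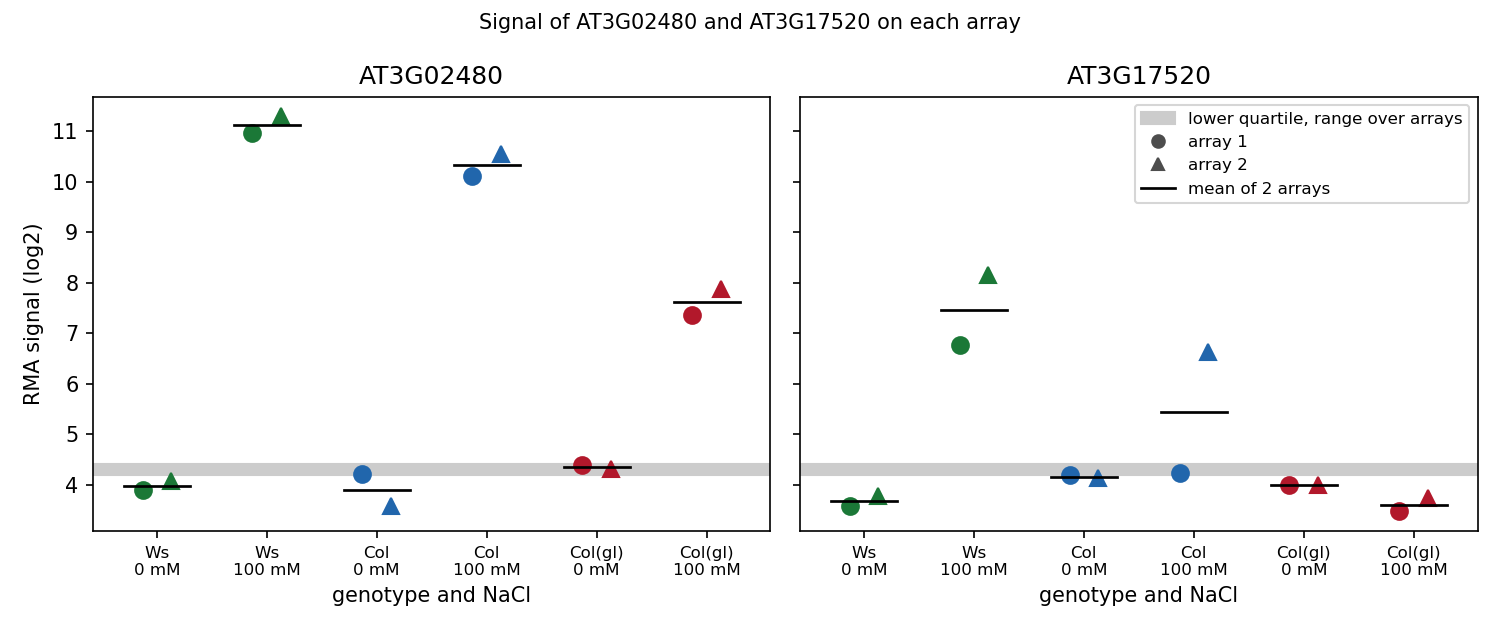
Log2 RMA signal (y axis) of AT3G02480 (left) and AT3G17520 (right) on each of the 12 arrays, by genotype and NaCl; circles are replicate 1, triangles replicate 2, black bars the mean of 2 arrays, and the grey band the range of the arrays' lower quartiles. AT3G02480 rises to between 7.36 and 11.30 on the 6 salted arrays, whereas AT3G17520 lies clearly above the band on only 3 of them.

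The salt difference of AT3G02480 was 7.15 ± 0.24 in Ws, 6.43 ± 0.24 in Col and 3.26 ± 0.24 in Col(gl) (log2, ± SE of the fit over all arrays, 2 arrays per group). Since 5 of the 6 unsalted signals were not above the quartile, these differences depend on values near background. With signals under the quartile raised to it, the rise was at least 112.5-fold in Ws, 61.6-fold in Col and 9.45-fold in Col(gl). Ranked from the highest among 22746 probe sets, the difference of AT3G02480 was number 1 in Ws and number 3 in both Col and Col(gl), and among probe sets listed with 1 gene it was number 1 in each. These ranks describe the choice of the gene and are not support for it.

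Salted levels of AT3G02480 followed the order Ws, Col, Col(gl), and all 3 are above background, so their differences are not bounds. The group means were 11.1 ± 0.23 in Ws, 10.3 ± 0.30 in Col and 7.61 ± 0.36 in Col(gl) (log2, ± SD, n = 2). Salted Ws exceeded salted Col by 0.80 ± 0.24 (± SE), and the lower Ws array (10.97) lay above the higher Col array (10.55). Salted Col(gl) differed from salted Col by -2.72 ± 0.24, a signal 6.57-fold lower, and from Ws by an 11.5-fold lower signal. Without salt the means of 3.98, 3.90 and 4.35 were all at the level of the quartile, so their order carries no reading. The replicate spread of AT3G02480, pooled over groups, was 0.29, above the median of 0.15 over all probe sets.

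AT3G17520 rose by far less, and a rise was not seen in every genotype. In Ws its log2 signals were 3.58 and 3.79 without salt and 6.78 and 8.15 with salt, so that both salted arrays lay well above both controls. In Col they were 4.19 and 4.13 without salt and 4.24 and 6.64 with salt. In Col(gl) they were 4.003 and 3.989 without salt and 3.47 and 3.74 with salt, all 4 under the lower quartile of their arrays.

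The salt difference of AT3G17520 was 3.78 ± 0.65 in Ws, 1.27 ± 0.65 in Col and -0.39 ± 0.65 in Col(gl) (log2, ± SE, 2 arrays per group). That SE pools the spread of all 6 groups and is not the spread of any 1 genotype. The replicate SD was 0.97 in salted Ws and 1.70 in salted Col, but 0.01 in unsalted and 0.19 in salted Col(gl). With the quartile as floor the rise in Ws was at least 8.86-fold. In Col(gl) the floored difference was -0.08, and since both levels were under the quartile no decrease is shown. Salted Ws exceeded salted Col by 2.03 ± 0.65 in AT3G17520, with 6.78 as the lower Ws array and 6.64 as the higher Col array. That distance of the nearest arrays is small beside the gap between replicates in either group.

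The Col value of AT3G17520 rested on 1 array. Replicate 1 of salted Col read 4.24, which is 0.07 above the mean of its controls, and replicate 2 read 6.64, which is 2.47 above it. The gap of 2.40 between these replicates was matched or exceeded by 0.273% of all probe sets in that group, where the median gap was 0.18. In salted Ws the gap of 1.38 was matched or exceeded by 2.32% of probe sets, again with replicate 1 lower. Replicate 1 is in both groups the plastid-low array that also had the wider actin gap, and the part of these features in the replicate gap was not tested. Without both of these arrays the salt difference of AT3G17520 was 4.47 in Ws and 2.47 in Col, and that of AT3G02480 was 7.32 and 6.65. Salted Ws then exceeded salted Col by 1.52 in AT3G17520 and by 0.75 in AT3G02480, with 1 array left in each group.

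Both genes read lower on replicate 1 than on replicate 2 in each salted group, but by unequal amounts. For AT3G02480 the gaps were 0.33 in Ws, 0.43 in Col and 0.51 in Col(gl), and for AT3G17520 they were 1.38, 2.40 and 0.27. Over all probe sets the median difference of replicate 2 minus replicate 1 was -0.01 in salted Ws, -0.03 in salted Col and 0.02 in salted Col(gl). The direction was not particular to the 2 genes. Of the 33 other measured LEA genes described below, 22 in salted Ws, 23 in salted Col and 30 in salted Col(gl) were lower on replicate 1. Of all probe sets 47.9%, 45.3% and 54.0% were. The gap of AT3G02480 was matched or exceeded by 30.6% of probe sets in salted Ws, by 17.5% in salted Col and by 2.11% in salted Col(gl), where replicates lay closest. The pooled replicate SD of AT3G17520 was 0.81, higher than that of 99.3% of probe sets.

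**Figure D2:**
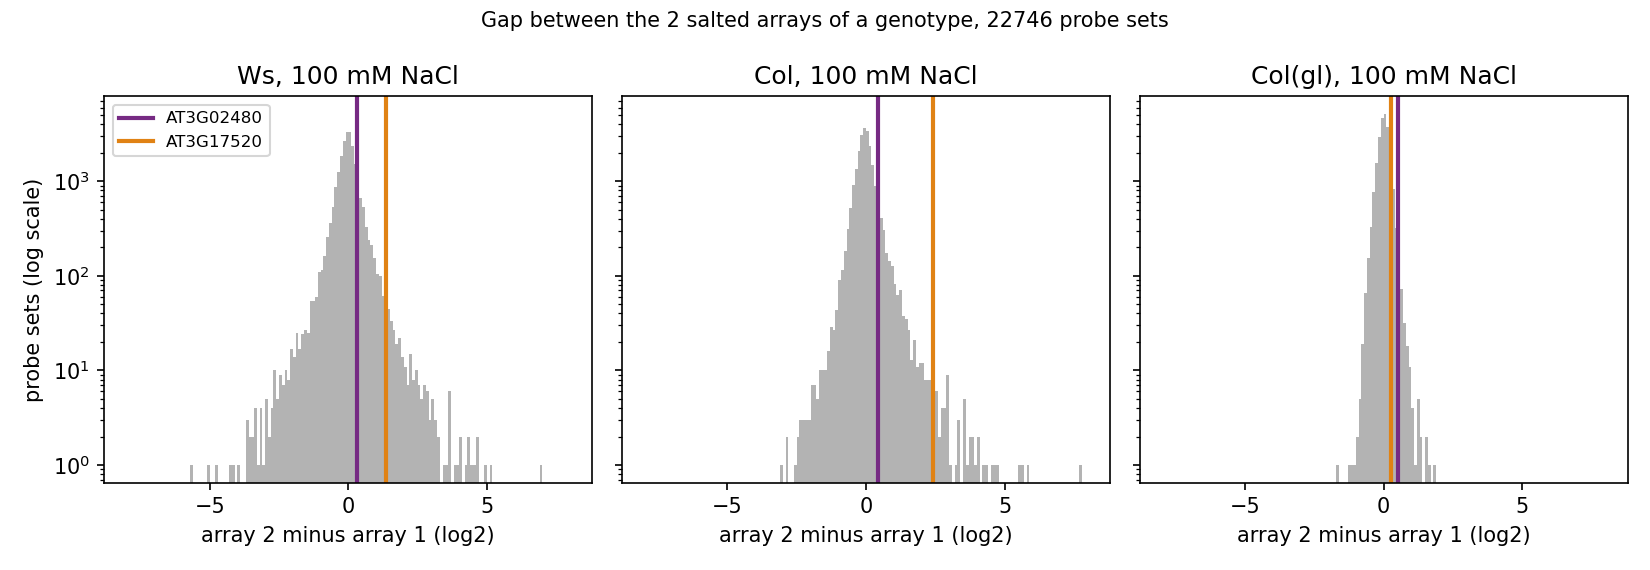
Distribution of the difference between the 2 salted arrays, replicate 2 minus replicate 1 in log2 units (x axis), over 22746 probe sets (y axis, number of probe sets on a log scale), in Ws, Col and Col(gl). Vertical lines mark AT3G02480 (purple) and AT3G17520 (orange), and the AT3G17520 line lies at 2.40 in Col, in the far tail, and at 0.27 in Col(gl).

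The 2 genes differed in where a rise with salt was seen. AT3G02480 was raised on both salted arrays of all 3 genotypes, and AT3G17520 on both in Ws, on 1 of 2 in Col and on 0 of 2 in Col(gl). The Col array without a clear rise was the plastid-low one. In Col(gl) all AT3G17520 signals were under the lower quartile, so a small rise there would not be seen. In each gene Ws had the highest salted mean and Col(gl) the lowest. Over the 12 arrays, which share their 6 groups, the signals of the genes correlated at r = 0.757 (Spearman's rho 0.601), a description with no test.

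Of the 51 loci of the LEA family list, 35 had a value under a name, and the other 33 beside the 2 described genes were read against the share of all probe sets called. A call means an adjusted p below 0.05 (limma, Benjamini-Hochberg over all 22746 probe sets). In Ws 7 of 33 were called higher with salt, 21.2% against 9.16% of all probe sets, and 1 lower, 3.03% against 7.45%. In Col 7 of 33 were called higher, 21.2% against 16.4%, and 5 lower, 15.2% against 21.1%. In Col(gl) 0 of 33 were called in either direction by limma, against 0.787% of all probe sets higher and 0.703% lower. An unadjusted limma p under 0.05 was found there for 1 of the 33, beside 3377 of all 22746 probe sets. A fit of only the Col(gl) arrays called 1338 probe sets, against 339 in the main fit, and again 0 of the 33. The list had a median salt difference of 0.12 in Ws, -0.06 in Col and -0.11 in Col(gl), beside -0.03, -0.13 and -0.02 over all probe sets.

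Higher in both Ws and Col were 5 of these genes, 71.4% of the calls in each. Over all probe sets, those called higher in both were 74.1% of the Ws calls and 41.4% of the Col calls. LTI30, a dehydrin, had the highest difference of the 33 in Col, at 4.74 ± 0.32 (adjusted p = 8.6e-06, limma), and rose by 2.66 ± 0.32 in Ws (adjusted p = 0.00062, limma). LEA4-5 (AT5G06760), of the LEA_1 group, had the highest in Ws. Its signals were 4.65 and 5.38 in unsalted Ws and 8.07 and 8.91 in salted Ws, and 6.04 and 5.66 in unsalted Col and 8.03 and 8.80 in salted Col. It rose by 3.47 ± 0.36 in Ws (adjusted p = 0.00026, limma) and by 2.57 ± 0.36 in Col (adjusted p = 0.00056, limma). In Col(gl) its arrays overlapped, at 5.47 and 5.02 without salt and 5.17 and 5.46 with salt. The other 3 were the dehydrin COR47, COR15A and COR15B.

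Higher calls in only 1 of Ws and Col fell on 4 genes. DI21 (AT4G15910), named as drought-induced and of the LEA_3 group, rose by 2.28 ± 0.15 in Col (adjusted p = 7.4e-06, limma) and differed by 0.43 ± 0.15 in Ws. AT2G23120, of the PvLEA18 group, rose by 1.20 ± 0.11 in Ws (adjusted p = 0.00010, limma) and differed by 0.13 ± 0.11 in Col. AT2G23110, of the same group, rose by 1.28 ± 0.28 in Ws (adjusted p = 0.013, limma) and differed by 0.39 ± 0.28 in Col. The responses of Ws and Col themselves differed for DI21 (adjusted p = 0.0021, limma) and AT2G23120 (adjusted p = 0.0049, limma), not for AT2G23110 (adjusted p = 0.25, limma). Over the 12 arrays AT2G23110 followed AT3G17520 at r = 0.944, the highest in the list. AT2G46140, of the LEA_2 group, rose by 0.67 ± 0.21 in Col (adjusted p = 0.035, limma) and its response did not pass the test of a difference from Ws (adjusted p = 0.73, limma).

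Over the 33 genes, the salt response in Ws was called above that in Col for 1 gene, against 2.53% of all probe sets, and below it for 2, against 2.14%. The response in Col(gl) was called below that in Col for 5 genes, against 8.58% of all probe sets, and above it for 0, against 8.77%. The response in Ws was called above that in Col(gl) for 6 genes, against 3.65%, and below it for 0, against 2.57%. These comparisons share arrays, and their 14 calls fell on 7 genes.

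The calls in the lower direction came from weak signals. The dehydrin gene LEA (AT2G21490) was called lower in Ws at -0.42 ± 0.12 and in Col at -0.59 ± 0.12, from signals between 3.43 and 4.23. In Col, AT5G27980 of the seed maturation group differed by -0.58 ± 0.14, the dehydrin AT4G39130 by -0.43 ± 0.11, AT1G72100 of LEA_4 by -0.39 ± 0.13 and AT3G53770 of LEA_3 by -0.28 ± 0.10. The 1 gene called lower in Ws and 4 of the 5 in Col were under the lower quartile on all 12 arrays. A count without the 25% of probe sets with the lowest mean signal left 0 calls lower in either genotype.

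Within the LEA_4 group itself 15 of 18 loci had a value, and the 13 beside the described genes had 2 called higher in Ws and in Col, the COR15 pair. That is 15.4%, against 9.16% of all probe sets in Ws and 16.4% in Col. The remaining 11 lay between 3.20 and 6.40 on every array, and their salt differences ran from -0.53 to 0.58 over the 3 genotypes. AT1G72100, AT2G18340, AT4G21020 and AT4G36600 were never above the lower quartile. AT2G03740, AT2G03850, AT3G15670, AT3G53040, AT4G13230 and AT5G44310 were above it on some arrays, without a call in any genotype. AT2G42560 reached 6.40 on replicate 2 of salted Col and read 4.69 on replicate 1, a gap in the same direction as that of AT3G17520, beside 5.37 and 4.69 on the Col controls.

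Without both plastid-low arrays, an alternative chosen after seeing the data, 10 of the 33 genes were called higher in Ws, against 10.3% of all probe sets, and 12 in Col, against 17.2%. AT3G15670, a LEA_4 gene, and LEA18 of LEA_1 were then among them in both genotypes. The count in Col fell below that of the main fit when replicate 2 of either Col group was left out. The 21.2% in Col against 16.4% of all probe sets is therefore not a firm excess.

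**Figure D3:**
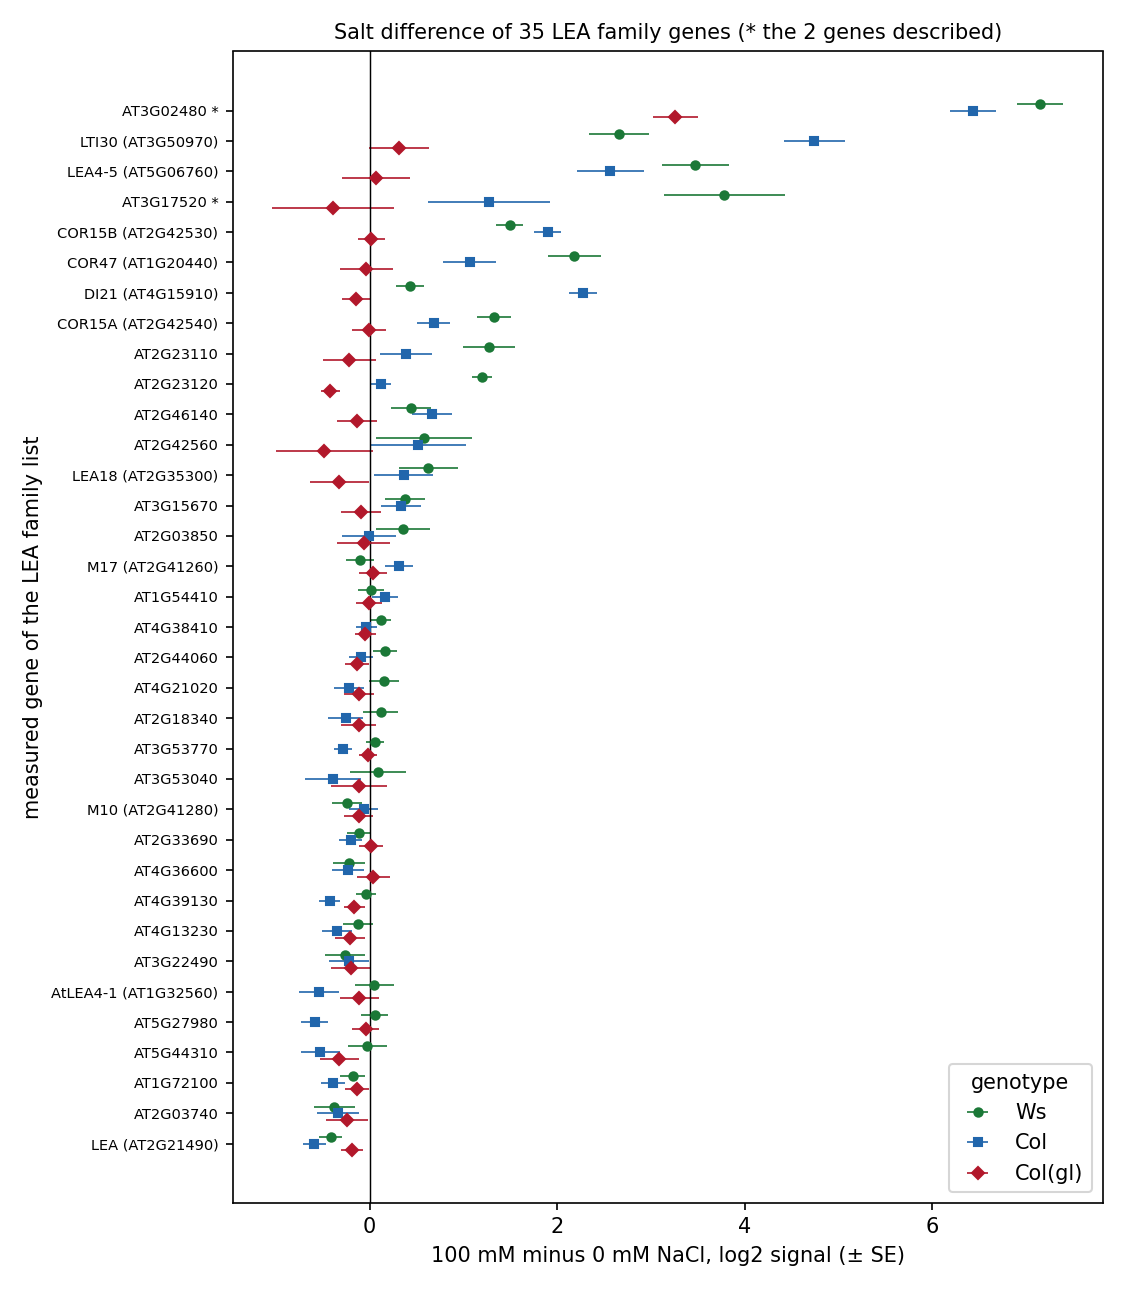
Salt difference (x axis, 100 mM minus 0 mM NaCl in log2 signal, bars ± SE of the fit, 2 arrays per group) of the 35 measured genes of the LEA family list (y axis) in Ws (green circles), Col (blue squares) and Col(gl) (red diamonds). AT3G02480, marked with an asterisk at the top, stands at 7.15, 6.43 and 3.26, while the Col(gl) differences of the other genes lie between -0.48 and 0.31.

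Some LEA genes were already higher in Col(gl) before any salt. Against unsalted Col, whose arrays are also the controls of the salt difference in Col, 5 of the 33 genes were called higher in unsalted Col(gl), 15.2% against 10.3% of all probe sets, and 0 lower against 13.5%. These were LTI30 at 2.60 ± 0.32, COR15B at 2.54 ± 0.14, COR47 at 1.39 ± 0.28, COR15A at 0.63 ± 0.18 and AT2G23120 at 0.44 ± 0.11. For AT3G02480 the same difference was 0.45 ± 0.24 and for AT3G17520 -0.17 ± 0.65, and 1 of the 8 signals behind these values, 4.39, was above its array's lower quartile. LTI30 and COR15B were thus high in the Col(gl) controls, where AT3G02480 read near the lower quartile.

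Genes that ran most like each member were sought among 889 other probe sets listed with 1 gene whose group means spanned at least 2 log2 units, by Pearson's r over the 12 arrays. For AT3G02480 the 10 highest values lay between 0.940 and 0.977. AT1G66760 came first at 0.977, followed by AT3G53980 at 0.974, AT1G09500 at 0.967, AT1G10585 at 0.957 and AT1G05340 at 0.957. AT4G33150 (LKR/SDH), the enzyme that starts lysine breakdown, stood at 0.953, and AT3G04000, AT2G37870 and AT4G33540 at 0.949, 0.946 and 0.945. XTH19 (AT4G30290), a xyloglucan-modifying enzyme of the cell wall, closed the 10 at 0.940.

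All 10 were higher with salt in each genotype. Their differences ran from 2.18 to 4.84 in Ws, 1.11 to 5.47 in Col and 0.49 to 2.66 in Col(gl). None could match the size of the AT3G02480 difference. The search was limited to probe sets listed with 1 gene, among which AT3G02480 ranked number 1 in each genotype. AT1G05340 had the highest Ws and Col differences, 4.84 and 5.47, beside 7.15 and 6.43 of AT3G02480. In Col(gl) AT2G37870 and XTH19 had the highest differences, both 2.66, beside the 3.26 of AT3G02480. Without the 2 plastid-low arrays 9 of the 10 genes were still among the 10 highest.

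For AT3G17520 the 10 highest values lay between 0.854 and 0.951. AT4G23680 came first at 0.951, then AT5G22460 at 0.935 and BSMT1 (AT3G11480), which makes methyl salicylate and methyl benzoate, at 0.919. AT3G04000 stood at 0.878 and was the 1 gene among the 10 of both members. LEA4-5 stood at 0.877, AT3G62590 at 0.873, AT3G57010 at 0.868, AT5G51440 at 0.865, AT5G61820 at 0.863 and UGT76B1 (AT3G11340), a glucosyltransferase, at 0.854.

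Several of these shared the low reading on replicate 1 of salted Col, which their choice on the same 12 arrays favours. BSMT1 read 5.89 there and 8.15 on replicate 2, against 5.64 and 5.48 without salt. AT4G23680 read 5.78 and 7.40, against 4.86 and 4.56 without salt. Over the 10 genes the median gap was 0.80, and 8 of 10 were lower on replicate 1, while AT5G51440 and UGT76B1 were not. Of all probe sets 45.3% were lower on replicate 1. Those 2 genes stayed low on both salted Col arrays, at 5.04 and 4.90 and at 4.50 and 4.31, and had their high signals in salted Ws, up to 8.46 and 7.40. Without the 2 plastid-low arrays 5 of the 10 remained among the 10 highest and LEA4-5 moved to the top at r = 0.962.

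**Figure D4:**
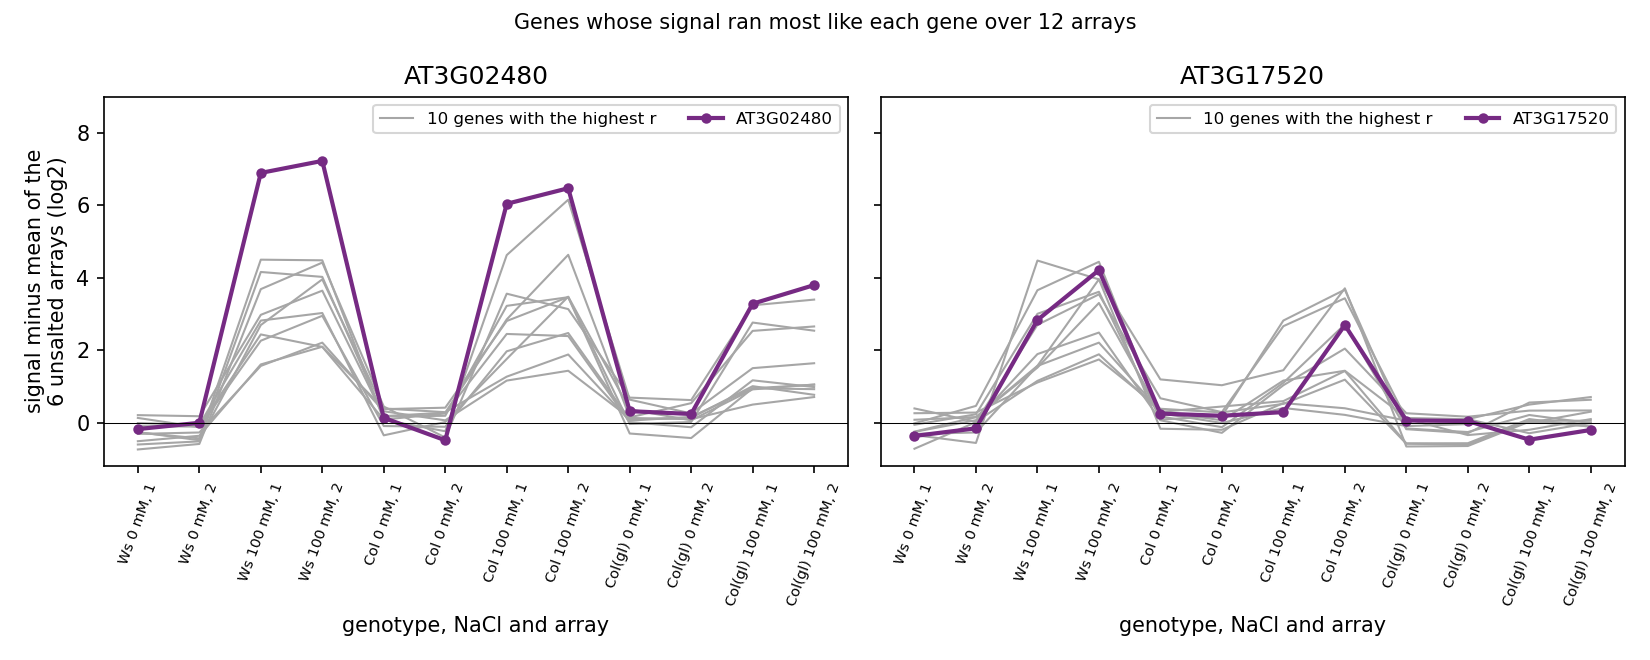
Signal on each of the 12 arrays (x axis) minus the mean of the 6 unsalted arrays (y axis, log2), for AT3G02480 (left, purple) and AT3G17520 (right, purple) and for the 10 genes with the highest Pearson's r with each (grey); lines join arrays only to guide the eye. The genes like AT3G02480 rise with salt in all 3 genotypes, in Col(gl) by at most 2.66, and those like AT3G17520 have Col(gl) salt differences from -0.23 to 0.83. Both sets were chosen on these 12 arrays, which favours a shared shape.

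The nearest genes on the chromosome had small salt differences. Among the 5 protein-coding genes on each side of AT3G02480 in the RefSeq table of assembly TAIR10.1, 6 had a value, and their differences ran from -0.56 to 0.60 in Ws and from -0.52 to 0.41 in Col. Called higher by limma were 0 of 6 in any genotype, beside 9.16% of all probe sets in Ws, 16.4% in Col and 0.787% in Col(gl). Called lower were 1 in Ws, 2 in Col and 0 in Col(gl), beside 7.45%, 21.1% and 0.703% of all probe sets. AT3G02460 was lower in both Ws and Col, at -0.56 ± 0.16 in Ws and -0.52 ± 0.16 in Col. The other call in Col, TBL20 (AT3G02440) at -0.44 ± 0.12, came from signals between 3.96 and 4.55, near the lower quartile. SAMDC (AT3G02470), an enzyme of polyamine synthesis and the next gene on the lower-numbered side, differed by 0.12 ± 0.15 in Ws and -0.05 ± 0.15 in Col. Of the 10 neighbours of AT3G17520 only AT3G17490 had a value, which stayed between 3.07 and 3.50 on all arrays.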

How the data were processed

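Total leaf RNA was made into biotin-labelled cRNA and hybridised to Affymetrix arrays, per the labels' protocols. The authors deposited RMA signals on the log2 scale. They were made with GCOS and RMA, per the submitters' processing notes, and the versions and settings are not given in the sources used here. The table held 22810 probe sets and 0 missing values, and 64 control probe sets were left out. The probe table used here pairs 13513 of the 22746 others with 1 gene and 503 with several, and leaves 8730 unnamed. Names come only from 1-gene probe sets, of which 13436 matched RefSeq. The table lists 14.8% of RefSeq genes that have a symbol of their own and 46.3% of those known by locus name only, so well-studied genes are thinly covered.

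A linear model with a mean for each of the 6 groups was fitted to all 12 arrays (limma 3.58.1, eBayes, R 4.3.3). Two-sided p-values were adjusted across the whole array (Benjamini-Hochberg). The fit was tried on simulated data with independent noise for each probe set. That checks the code, not the calls under spread that probe sets of an array share. The 2 genes and the lists were chosen with earlier results of these data known. Named are the 2 genes, the 10 probe sets most like each, all LEA_4 genes and up to 4 called genes of every other LEA group. The neighbouring genes were added later. A list of 58 genes of abscisic acid synthesis, signalling and response had 0 members with a value under a name, and sequences were not used here. Python 3.11.15 and matplotlib 3.10.9 made the figures.

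Alternatives were quantile renormalization, a common array median, a floor at the lower quartile, leaving out the dimmest 25% of probe sets, an intensity trend with a robust prior, a fit of only the arrays of 1 genotype, a replicate block and leaving out each array. With 2 arrays per group their number limits the precision.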

Additional observations from a re-analysis of the deposited data

Results flagged for a closer look

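AT3G17520 was higher on both salted arrays than the control mean in Ws and in Col and lower on both in Col(gl). On replicate 1 of salted Col the excess was 0.07. The response in Ws exceeded that in Col(gl) by 4.17 ± 0.92 (log2, ± SE pooled over the 6 groups). The response in Col(gl) differed from that in Col by -1.66 ± 0.92. The difference was not tested, because the gene was chosen for its pattern, and the Col(gl) signals were under the lower quartile. Without both plastid-low arrays the values were 4.86 and -2.86.

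For 7 other LEA genes the salt responses of 2 genotypes differed by the interaction term of the limma fit, adjusted over all probe sets. All 14 differences below kept their direction without both plastid-low arrays, a fit that leaves 1 salted array each in Ws and Col. Col(gl) minus Col was -4.43 ± 0.45 for LTI30 (adjusted p = 0.00027), -2.50 ± 0.51 for LEA4-5, -2.42 ± 0.21 for DI21, -1.88 ± 0.20 for COR15B and -0.54 ± 0.15 for AT2G23120 (adjusted p = 0.035). Ws minus Col(gl) was 3.40 ± 0.51 for LEA4-5 (adjusted p = 0.0044), 2.34 ± 0.45 for LTI30, 2.22 ± 0.40 for COR47, 1.62 ± 0.15 for AT2G23120, 1.48 ± 0.20 for COR15B and 1.33 ± 0.25 for COR15A. Ws minus Col was -2.09 ± 0.45 for LTI30 (adjusted p = 0.033), -1.85 ± 0.21 for DI21 and 1.08 ± 0.15 for AT2G23120. LTI30, COR15B, COR47, COR15A and AT2G23120 were called higher in the Col(gl) controls than in the Col controls. LEA4-5, at 5.25 in the Col(gl) controls against 5.85 in the Col controls, and DI21, at 6.56 against 6.48, were not.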

How the results depend on the processing

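The salt differences of AT3G02480 kept their direction under every alternative run. With the quartile floor they were 6.81 in Ws and 5.94 in Col. Leaving out 1 array gave 6.99 to 7.32 in Ws, 6.12 to 6.74 in Col and 3.005 to 3.52 in Col(gl). For AT3G17520 it gave 3.10 to 4.47 in Ws, 0.072 to 2.47 in Col and -0.52 to -0.25 in Col(gl), and without both plastid-low arrays, chosen after seeing the data, the Col value was 2.47.

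Among the 33 other LEA genes, the 7 higher in Ws ranged from 6 to 8 and the 7 higher in Col from 4 to 9 without 1 array. Without both plastid-low arrays the count in Col was 12. The 1 lower in Ws became 0 after quantile renormalization, with the low-signal filter, with only the Ws arrays, with the replicate block, with crossed numbers in Col(gl) and without both plastid-low arrays, and was 0 to 1 without 1 array. The 5 lower in Col became 1 after quantile renormalization, 0 with the low-signal filter, 2 with only the Col arrays, and 3 with crossed numbers in Col(gl), and were 2 to 5 without 1 array. In Col(gl) the 0 lower became 1 (AT2G23120) without both plastid-low arrays. The low-signal filter kept 14 of the 33 genes. For these changes of the lower counts the cause was not tested. No value could be given for the abscisic acid list.

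Replicate numbers carry no stated pairing. With the replicate block 7 genes were higher in Ws and 7 in Col and 4 were lower in Col. Each group holds both numbers, so the block cannot move a difference of group means such as the 7.15 of AT3G02480 in Ws. Across probe sets the differences of replicate 1 minus replicate 2 correlated at 0.697 between salted Ws and salted Col, the groups with the plastid-low arrays, at 0.477 between unsalted Ws and salted Col(gl), and at -0.352 between unsalted and salted Col(gl). For Col(gl) crossed numbers as pairs, added after seeing the data, gave 179 called probe sets in Col(gl) and 0 LEA genes. The main fit called 339 there and a fit of only the Col(gl) arrays 1338, each with 0 LEA genes. The number of calls in Col(gl) thus depends strongly on the fit.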
